A study of Rattus norvegicus with 62 samples.

Results

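The genes described here are 5 transcripts used as markers of altered hepatocyte foci or related to them, namely Gstp1, Ggt1, Akr1b8, Gpx2 and Il13ra2. They were found by gene symbol. Each was the single symbol of 1 probe set, which makes 5 of the 14217 genes named by 1 symbol and 5 of 31099 probe sets. The genes were proposed with the results of high-dose diethylnitrosamine in these data already known. Their values in that group are therefore a description without a test, and tests are given for the other treatments.

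Liver RNA from 31 male rats of the outbred Crj:CD(SD)IGS stock was hybridised to 62 Affymetrix microarrays, 2 per animal. Livers were sampled at partial hepatectomy (5w), 1 week after promotion began, and the same animals were sampled again at the end (10w), so every liver of the later week had been resected. The vehicle of the initiators was methylcellulose (MC), and the promoter was phenobarbital (PB) at 500 ppm in drinking water for 6 weeks in all. Initiators were given for 1 or 2 weeks, then withdrawn for 2 weeks, and the labels do not say which compound had which duration. MC/water rats, 4 animals, received neither an initiator nor PB, and MC/PB rats, 4 animals, received PB alone. Diethylnitrosamine (DEN), an alkylating liver carcinogen, was given at 3 mg/kg to the 5 DEN3/PB rats and at 30 mg/kg to the 4 DEN30/PB rats. The 5 TAA/PB rats received 45 mg/kg of thioacetamide, the 5 MP/PB rats 100 mg/kg of methapyrilene and the 4 APAP/PB rats 1000 mg/kg of acetaminophen, which are liver toxicants. The labels give no age, no count of foci and no tumour outcome. RNA came from whole liver tissue, so more cells with a transcript and more transcript per cell cannot be told apart.

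Initiation and promotion protocols of this kind leave small clones of hepatocytes with altered enzyme content, which phenobarbital helps to grow. The placental form of glutathione transferase, encoded by Gstp1, is scarce in normal adult rat hepatocytes and is the classic stain for such clones, and gamma-glutamyltransferase, encoded by Ggt1, is the older histochemical marker. Glutathione is the shared substrate of Gstp1, which couples it to electrophiles, Ggt1, which breaks it down at the cell surface, and Gpx2, which uses it to reduce hydroperoxides. Akr1b8 encodes an NADPH-dependent aldo-keto reductase that reduces aldehydes, and Il13ra2 encodes the alpha 2 chain of the interleukin 13 receptor, known as a decoy that binds the cytokine.

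Several of these enzymes belong to the antioxidant defence that NRF2 drives through the antioxidant response element, and the Gstp1 gene is also known for AP-1 sites. Promoter windows from RefSeq on the GRCr8 build were available for 4 of the 5 genes. Each holds 300 bases, from 250 before an annotated start of the gene to 50 from it. The windows were searched on both strands for the antioxidant response element as TGACNNNGC and for the AP-1 site as TGANTCA. Gstp1 and Gpx2 are printed because they hold a match, and Akr1b8 because its signal was the one most like that of Gstp1. Capitals mark the matches, and each sequence runs 5′ to 3′ on the strand of its gene.
Gstp1: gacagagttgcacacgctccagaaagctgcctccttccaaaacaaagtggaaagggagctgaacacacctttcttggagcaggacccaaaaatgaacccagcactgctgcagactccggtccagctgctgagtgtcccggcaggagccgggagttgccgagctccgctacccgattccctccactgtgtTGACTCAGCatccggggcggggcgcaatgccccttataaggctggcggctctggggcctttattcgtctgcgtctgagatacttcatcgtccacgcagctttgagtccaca
Gpx2: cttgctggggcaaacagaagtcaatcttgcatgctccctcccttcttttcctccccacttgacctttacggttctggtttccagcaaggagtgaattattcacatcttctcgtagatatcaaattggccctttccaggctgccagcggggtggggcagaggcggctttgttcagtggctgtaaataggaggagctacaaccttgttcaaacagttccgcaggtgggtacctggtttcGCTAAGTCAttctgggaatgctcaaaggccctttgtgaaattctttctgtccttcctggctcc
Akr1b8: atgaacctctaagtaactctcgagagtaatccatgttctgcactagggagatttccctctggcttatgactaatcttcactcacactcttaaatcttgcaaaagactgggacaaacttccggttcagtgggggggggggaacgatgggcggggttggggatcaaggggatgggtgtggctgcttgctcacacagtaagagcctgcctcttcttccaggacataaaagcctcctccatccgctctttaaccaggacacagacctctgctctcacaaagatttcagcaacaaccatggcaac
The Gstp1 window (chr1:210769656-210769955, minus strand) holds TGACTCAGC from -61 to -53 relative to the start. Its first 7 bases, TGACTCA, also match the AP-1 letters, so the 2 motifs overlap there. The Gpx2 window (chr6:101229984-101230283, minus strand) holds GCTAAGTCA from -13 to -5, which matches the antioxidant response element on the opposite strand. No match to these letters was found in the Akr1b8 window (chr4:63964171-63964470, plus strand) or in that of Ggt1 (chr20:13095055-13095354, minus strand). The Gstp1 and Ggt1 windows lie inside the annotated genes, whose 5′ ends are at 210770242 and 13103551. The sequence at those ends was not searched. Among 33469 promoter windows of this length, 12.1% held TGACNNNGC and 7.33% held TGANTCA. A match in letters is not a measured binding site.

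Array scale was even. The median signal of an array lay between 99.3 and 125.7, with a trimmed mean between 500.23 and 500.27. After subtraction of group means 2 array sets were apparent, of 30 and 32 arrays, with 2 or 3 arrays of every group in each. The first component, which separates the sets, held 11.8% of the variation within groups, and its origin is not given in the sources used here. Both arrays of each of the 31 animals were in the same set. Hepatocyte genes were abundant on every array, with Alb between 39383 and 82817 and Hnf4a between 9515 and 18268. The Gstp1 signal reached 100 on 62 arrays, Il13ra2 on 61, Ggt1 on 52, Akr1b8 on 44 and Gpx2 on 26. The reference annotation names 3 pseudogenes of Gstp1, 5 of Akr1b8 and 2 of Gpx2, and a probe set may take up transcripts of such copies.

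Gstp1 was higher in high-dose DEN livers than in livers with PB alone at both weeks. At 5w the DEN30/PB livers had Gstp1 signals of 4016, 1565, 5807 and 1349. Their PB-only controls had 1121, 853, 907 and 658. All DEN30/PB animals lay above all MC/PB animals, but animal 4 lay within the range of other groups, since MC/water had 1389.9, 1034, 987 and 739.8. The remaining treated groups of 5w stayed near the controls, with 1321, 975, 1213, 849 and 904 in TAA/PB and 1075, 678, 1106 and 706 in APAP/PB. MP/PB had 1362, 822, 1101, 1046 and 1031. At 10w the DEN30/PB signals were 11907, 4174, 13557 and 2634. The MC/PB signals of that week were 1728, 954, 835 and 758, and the MC/water signals were 1065, 842, 947 and 612. Again the groups did not overlap, and animals 1 and 3 stood far above animals 2 and 4 at both weeks. On the scale of log2(signal + 25), DEN30/PB exceeded MC/PB by 1.58 ± 0.30 (SE) at 5w and by 2.65 ± 0.41 (SE) at 10w.

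The high and the low pair of DEN30/PB animals lay in different array sets. Within set 1, which holds animals 1 and 3, the Gstp1 difference from MC/PB was 2.23 at 5w and 3.37 at 10w. Within set 2 it was 0.93 and 1.93. DEN30/PB was therefore higher in both sets at both weeks, with a smaller difference in set 2. Gstp1 was higher in set 1 in 7 of 7 groups at 5w and in 6 of 7 at 10w, by a median of 0.42 and 0.47 on the log2 scale. Whether the set or the animals make the gap inside the DEN30/PB group cannot be told apart, because each of these animals is in 1 set only.

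After the low dose of DEN, some animals had Gstp1 signals above all controls at 10w. The 5 DEN3/PB livers had signals of 2041, 894, 4357, 2162 and 1469 at 10w, of which 3 were above the highest MC/PB value. At 5w the same animals had 1274, 932, 1479, 1114 and 1006, which overlapped MC/PB. The difference from MC/PB was 0.90 ± 0.39 (SE) at 10w, with a 95% interval of 0.10 to 1.70. It did not pass after adjustment over all genes (limma, Benjamini-Hochberg adjusted p = 1.00, unadjusted p = 0.0287). At 5w it was 0.39 ± 0.28 (SE). Ordered by mean log2 level at 10w, Gstp1 was highest in DEN30/PB, followed by DEN3/PB, TAA/PB, MC/PB, MP/PB, APAP/PB and MC/water. The ranges of every pair of neighbours in this order overlapped. From TAA/PB down to MC/water the means lay between 10.14 and 9.77, and neighbouring means differed by less than the SD of either group.

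**Figure D1:**
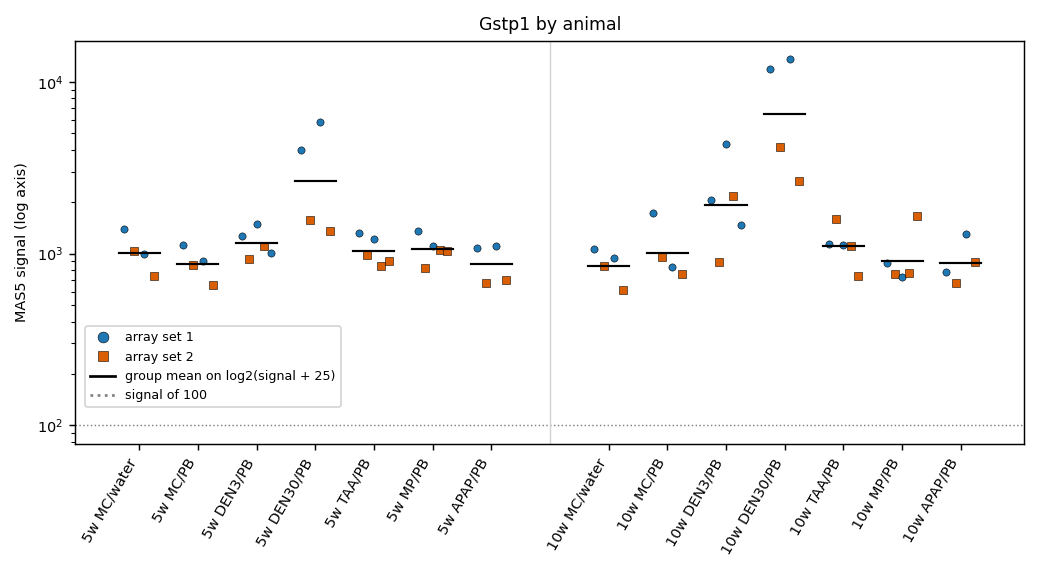
Gstp1 signal of each animal (log axis) in the 14 groups, with 5w to the left and 10w to the right. Symbols mark the array set, the horizontal line of a group is its mean on log2(signal + 25), and the dotted line is a signal of 100. DEN30/PB reached 13557 at 10w, and its 2 animals of set 1 lay above the 2 of set 2 at both weeks.

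Ggt1, the cell-surface enzyme that opens the breakdown of glutathione, was also higher in DEN30/PB, most clearly at 10w. The DEN30/PB signals at 10w were 502, 690.2, 564 and 313. MC/PB livers had 123, 125, 149.7 and 178, and MC/water livers had 118, 82, 142 and 116. No DEN30/PB animal overlapped either of these groups, whereas the highest APAP/PB signal, 338, was above the lowest of DEN30/PB. The difference from MC/PB was 1.65 ± 0.31 (SE), with 1.79 in array set 1 and 1.50 in set 2.

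At 5w the Ggt1 signals of DEN30/PB were 153, 269, 171 and 182. MC/PB had 104, 95, 66.7 and 179, so animal 4 of MC/PB lay inside the range of DEN30/PB. The difference at this week was 0.72 ± 0.31 (SE). Other treated groups had wide ranges around the signal minimum of 100 used for testing. At 10w the TAA/PB animals had 106, 282, 162, 299.6 and 248 and the APAP/PB animals 143, 333, 104 and 338. Each of these groups holds animals at the level of the controls and animals well above them. DEN3/PB had 229.5, 154, 151, 139.8 and 281, and MP/PB had 108, 142, 184, 282 and 138. The order at 10w was DEN30/PB, TAA/PB, APAP/PB, DEN3/PB, MP/PB, MC/PB and MC/water, and only the first step was a step without overlap.

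Akr1b8, the aldo-keto reductase, separated DEN30/PB from every other group at both weeks. At 5w the DEN30/PB signals were 267, 442, 453 and 363. The highest signal of any other group at that week was 205, in MC/PB, whose animals had 128, 111, 181 and 205. At 10w the DEN30/PB signals were 1207, 1758, 1841 and 1036. The nearest group was DEN3/PB, with 231, 239, 683, 354 and 381, and it did not reach the lowest DEN30/PB animal. TAA/PB, with 209, 159, 217, 343 and 57.8, and APAP/PB, with 151, 187, 91 and 92.1, lay in the range of the MC/PB and MC/water animals or near it. Differences of DEN30/PB from MC/PB were 1.17 ± 0.44 (SE) at 5w and 2.46 ± 0.53 (SE) at 10w. The 4 DEN30/PB animals were more alike in Akr1b8 than in Gstp1, with a ratio of highest to lowest signal of 1.78 against 5.15 at 10w. The order at 10w was DEN30/PB, DEN3/PB, MC/PB, TAA/PB, APAP/PB, MC/water and MP/PB, with overlap of neighbours after the first step. Within array sets the 10w difference was 3.14 in set 1 and 1.79 in set 2, where the MC/PB animals had the higher signals of their group.

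Phenobarbital alone went with higher Akr1b8 values that did not pass the test. MC/water livers had 93.8, 141, 11.3 and 47.9 at 5w and 61.8, 149.5, 86.5 and 72.9 at 10w. MC/PB at 10w had 115, 294, 187 and 473, of which 3 were above all MC/water animals. The difference of MC/PB from MC/water was 1.06 ± 0.44 (SE, 95% interval 0.15 to 1.96) at 5w and 1.21 ± 0.53 (SE, 0.12 to 2.30) at 10w. Without MC/water animal 3, whose signal was 11.3, the 5w difference was 0.65, and with an offset of 100 it was 0.60. The adjusted p (limma, Benjamini-Hochberg) was 0.338 and 0.287. MP/PB had the widest spread of Akr1b8 at 10w, with signals of 8.71, 15.9, 94.6, 189 and 342, and its mean was the lowest of the week. It differed from MC/PB by -1.32 ± 0.51 (SE, 95% interval -2.35 to -0.28), which did not pass (limma, Benjamini-Hochberg adjusted p = 0.509) and was -0.79 with an offset of 100.

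Gpx2, the glutathione peroxidase known from the gut lining, did not separate DEN30/PB from PB alone. Its 10w signals in that group were 176, 240.2, 814 and 129. MC/PB had 43.1, 1108, 51.8 and 32.9, and so animal 2 of the controls was above all DEN30/PB animals. MC/water had 5.6, 22.8, 7.17 and 59.3, all under 100. At 5w the DEN30/PB signals were 40.6, 25.6, 234 and 49.4 and those of MC/PB were 55.8, 150.0, 9.54 and 7.38, and the ranges overlapped. The difference of DEN30/PB from MC/PB was 0.50 ± 0.69 (SE) at 5w and 1.08 ± 0.94 (SE) at 10w. Single animals set these values. Without MC/PB animal 2 the 10w difference was 2.10, and without DEN30/PB animal 3 it was 0.57. At 5w it was 0.99 without the array of MC/PB animal 2 and -0.01 without that of DEN30/PB animal 3. Within array set 1 it was 1.30 at 5w and 2.51 at 10w, and within set 2 it was -0.29 and -0.34.

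High Gpx2 signals appeared in several treatments at 10w, in some animals of each. DEN3/PB had 128, 860.3, 772, 669 and 182, all above 100. APAP/PB had 1346, 1033, 88.5 and 211, and TAA/PB had 7.65, 597, 183, 862 and 53.9. In both groups high and low animals stood side by side. The same animals already stood out at 5w, when APAP/PB had 369, 223, 71.4 and 26.8 and TAA/PB had 33.6, 178, 35.7, 232 and 36.4. MP/PB stayed low, with 12.5, 49.2, 60.1, 27.2 and 155 at 10w. Compared over groups at 10w, the mean log2 level was highest in APAP/PB, at 8.79 ± 1.72 (SD, n = 4), next to DEN3/PB, at 8.76 ± 1.19 (SD, n = 5), and the 2 groups overlap. DEN30/PB, TAA/PB, MC/PB, MP/PB and MC/water followed, each overlapping its neighbours. The differences from MC/PB were 1.71 ± 0.94 (SE, 95% interval -0.21 to 3.62) and 1.67 ± 0.89 (SE, -0.14 to 3.49), and neither passed in limma (Benjamini-Hochberg adjusted p = 0.845 and 1.00). Without MC/PB animal 2 they were 2.73 and 2.69. For PB alone no precise fold can be given, since animal 2 of MC/PB was the only one of the 8 MC/PB and MC/water animals at or above 100. With signals under 100 set to 100, the difference is at least 1.82-fold and rests on that animal. The fit gave 1.61 ± 0.94 (SE; limma, Benjamini-Hochberg adjusted p = 0.471) with it and 0.59 without it.

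Il13ra2, the interleukin 13 receptor chain, was higher in DEN30/PB by a smaller and more even margin. At 5w the MC/PB signals were 207, 190.2, 201 and 184, and the DEN30/PB signals were 306, 421, 304 and 270.2. At 10w MC/PB had 137, 129, 185 and 152, and DEN30/PB had 307, 468, 303 and 316. The lowest DEN30/PB animal of 10w, at 303, was above each animal of the other groups, of which MC/water animal 3 was the highest with 219. At 5w DEN3/PB and MP/PB reached into the range of DEN30/PB, with up to 350.0 and 291. DEN30/PB exceeded MC/PB by 0.65 ± 0.19 (SE) at 5w and by 1.08 ± 0.19 (SE) at 10w. Both array sets gave a positive value at 10w, 0.84 in set 1 and 1.32 in set 2. The order at 10w was DEN30/PB, DEN3/PB, APAP/PB, MC/water, MC/PB, TAA/PB and MP/PB, and after the first step neighbouring groups overlapped.

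In the 6 other groups the mean Il13ra2 level was lower at 10w than at 5w, and in DEN30/PB it was not. The mean log2 level of DEN30/PB was 8.44 ± 0.26 (SD, n = 4) at 5w and 8.52 ± 0.28 (SD, n = 4) at 10w. That of MC/PB was 7.78 ± 0.07 (SD, n = 4) and 7.45 ± 0.20 (SD, n = 4). DEN3/PB at 5w, with 216, 212, 256, 308 and 350.0, did not overlap MC/PB. Its difference of 0.39 ± 0.18 (SE, 95% interval 0.02 to 0.76) did not pass over all genes (limma, Benjamini-Hochberg adjusted p = 0.924), and 1.12% of all genes were higher without overlap in this comparison.

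**Figure D2:**
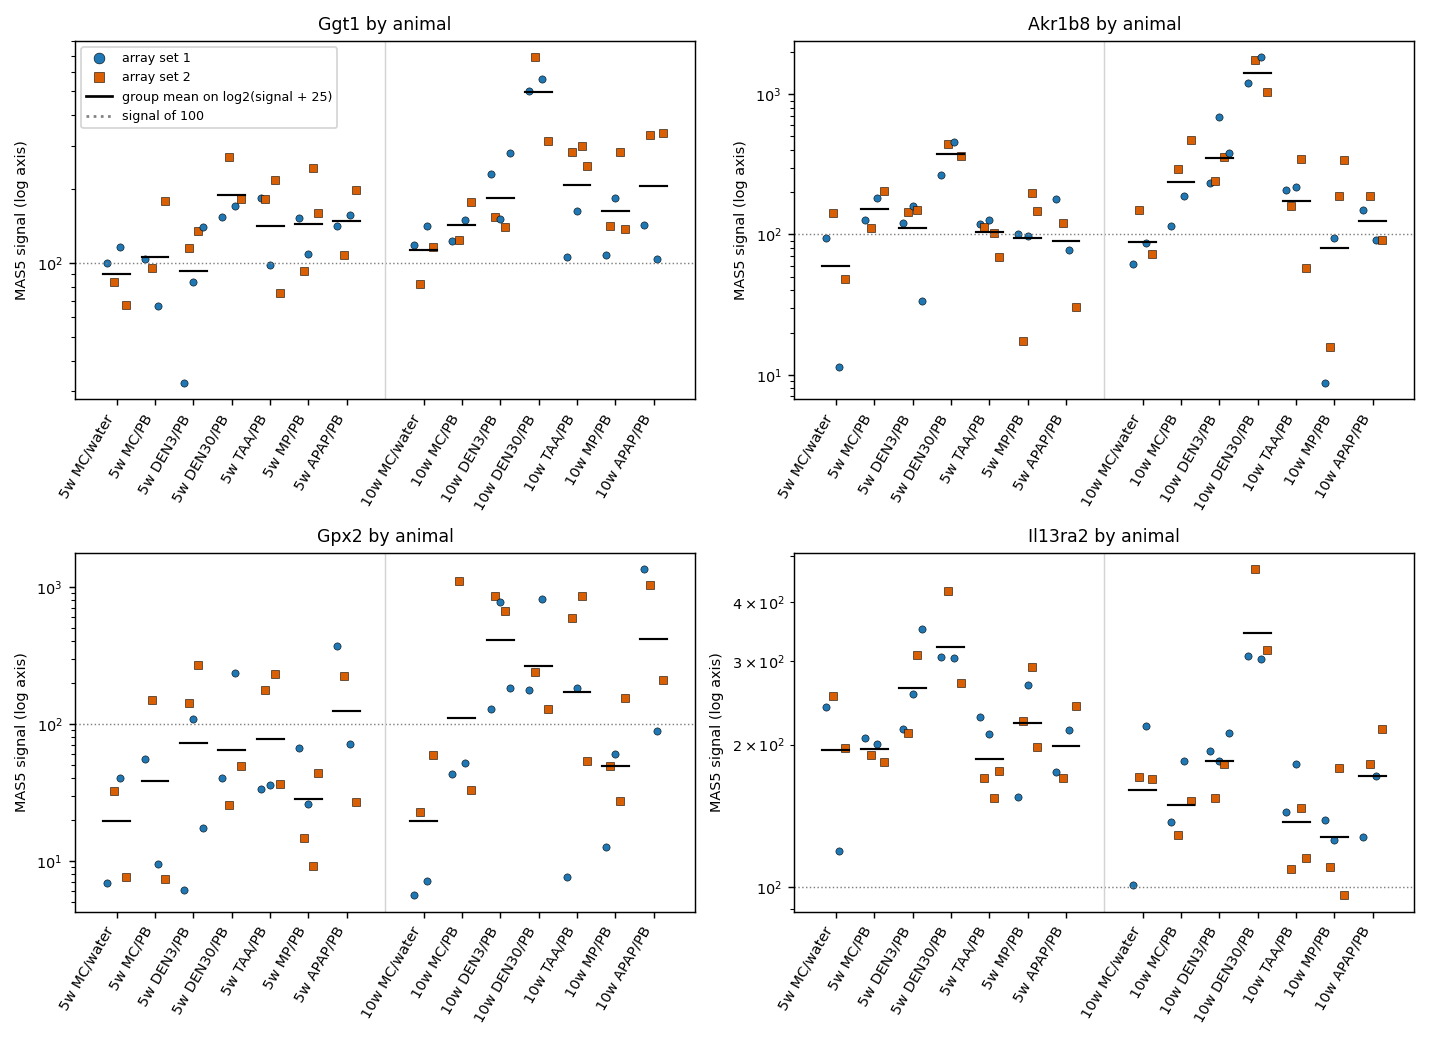
Signals of Ggt1, Akr1b8, Gpx2 and Il13ra2 in each animal (log axes, which differ between panels) in the 14 groups, drawn as for Gstp1 with array sets as symbols and group means as lines. Akr1b8 and Il13ra2 of DEN30/PB stand clear of every other group at 10w, and Gpx2 is spread from 5.60 to 1346 at that week.

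Against PB alone, 3 members of DEN30/PB were higher without overlap at 5w (Gstp1, Akr1b8 and Il13ra2) and 4 at 10w, all but Gpx2. Over all genes 2.2% and 1.98% were higher without overlap, and 0.114% and 0.0284% passed the adjusted threshold of 0.05 in limma. The members were chosen from this comparison, so nothing is read from their count. From the 5th to the 95th percentile, the differences of all genes lay between -0.29 and 0.40 at 5w and between -0.28 and 0.43 at 10w.

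The higher dose of DEN gave larger differences for 4 members and not for Gpx2. DEN30/PB minus DEN3/PB at 10w was 1.75 ± 0.39 (SE) for Gstp1 and 1.32 ± 0.30 for Ggt1. It was 1.95 ± 0.51 for Akr1b8 and 0.81 ± 0.18 for Il13ra2. Gpx2 had a mean below that of DEN3/PB, with a difference of -0.59 ± 0.89 and overlapping groups. At 5w the values were 1.19 ± 0.28 for Gstp1, 0.86 ± 0.30 for Ggt1, 1.55 ± 0.42 for Akr1b8, -0.12 ± 0.66 for Gpx2 and 0.26 ± 0.18 for Il13ra2. These are descriptions, since DEN30/PB enters them. Ggt1 and Akr1b8 were higher without overlap at 5w, and these and Il13ra2 at 10w, beside 1.13% and 0.797% of all genes. The Gstp1 groups overlapped at both weeks through DEN3/PB animal 3, which at 10w, with 4357, was above DEN30/PB animals 2 and 4 and at 5w, with 1479, above animal 4.

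No member passed in any other comparison within a week. Of the 10 member results for PB alone, 0 were called in limma and 2 had an unadjusted p under 0.05, both for Akr1b8. Over all genes 1.26% at 5w and 2.26% at 10w were called for PB. Of the 40 member results for DEN3, TAA, MP and APAP against MC/PB, 0 were called and 3 had an unadjusted p under 0.05. These were Gstp1 in DEN3/PB at 10w, Akr1b8 in MP/PB at 10w and Il13ra2 in DEN3/PB at 5w. The share of all genes called was 0.0381% and 0.019% for DEN3, 0.0191% and 0.00948% for TAA, 0.0572% and 0.0853% for MP, and 0% and 0.0664% for APAP. All initiators were compared with the same 4 MC/PB animals of a week, so a high or low control moves every one of these values.

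The intervals show which sizes these animals leave possible. Over the 8 comparisons of DEN3, TAA, MP and APAP, the 95% intervals of Il13ra2 reached from -0.57 to 0.76 and those of Ggt1 from -0.75 to 1.10. Those of Gstp1 reached from -1.04 to 1.70 and those of Akr1b8 from -2.35 to 1.55. Gpx2 was the least determined, with intervals reaching from -2.70 to 3.62. For acetaminophen the Gstp1 difference was -0.19 ± 0.41 (SE) at 10w, with signals of 780.2, 670.0, 1291 and 889. For TAA it was 0.12 ± 0.39 (SE), with signals of 1131, 1584, 1117, 1101 and 745, and for MP -0.15 ± 0.39 (SE). In MP/PB animal 5 had 1644, while the other 4 animals lay between 726 and 879.

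**Figure D3:**
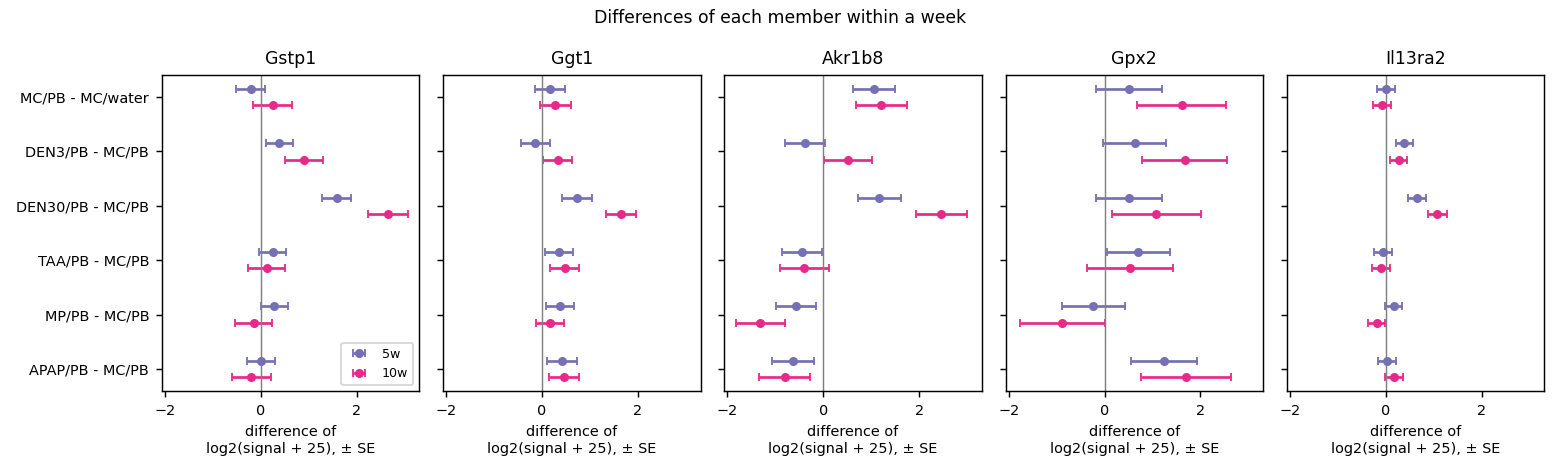
Difference of log2(signal + 25) for each member (1 panel each) in 6 comparisons within a week, as points with bars of ± 1 SE, for 5w and 10w. Among the points of the same week, those of DEN30/PB lie farthest to the right for Gstp1, Ggt1, Akr1b8 and Il13ra2. They lie farther at 10w than at 5w, and the bars of Gpx2 are the widest.

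Each animal was measured at both weeks, so the members could be followed within animals. In DEN30/PB, Gstp1 was higher at 10w in 4 of 4 animals, by a ratio of 1.95 to 2.97. Ggt1 was higher in 4 of 4 by 1.73 to 3.30, and Akr1b8 in 4 of 4 by 2.85 to 4.53. Gpx2 was higher in 4 of 4, but 3 of the 4 had 5w signals under 100, and the ratio of animal 3, the one above it, was 3.48. Il13ra2 was higher in 3 of 4, with ratios from 0.996 to 1.17. On the log2 scale 10w minus 5w was 1.28 ± 0.37 (SE) for Gstp1, 1.29 ± 0.32 for Ggt1, 1.86 ± 0.51 for Akr1b8, 1.69 ± 0.86 for Gpx2 and 0.09 ± 0.19 for Il13ra2. The SEs come from the fit in which animals were not paired. These differences are given as a description, without a test. Ggt1 and Akr1b8 were higher at 10w without overlap between the weeks, beside 2.3% of all genes.

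Over all 31 animals the members differed in direction between weeks. Ggt1 and Gpx2 were higher at 10w in 25 animals each, Akr1b8 in 23, Gstp1 in 16 and Il13ra2 in 5. Without an initiator and without PB, Gstp1 was higher at 10w in 0 of 4 animals, with ratios of 0.766 to 0.959, and Il13ra2 in 1 of 4. Il13ra2 was lower at 10w in all 19 animals of MC/PB, DEN3/PB, TAA/PB and MP/PB. It fell in MP/PB, from 155, 224, 267, 291 and 197 at 5w to 138, 110.2, 126, 178 and 96.1 at 10w. The difference was -0.70 ± 0.17 (SE; limma, Benjamini-Hochberg adjusted p = 0.0246; 5 of 5 animals lower). It was the only one of 30 member results between weeks that was called when animals were not paired. The share of all genes called was 1.34% in MP/PB, 0.0458% in MC/water, 1.31% in MC/PB, 1.77% in TAA/PB and 1.47% in APAP/PB. With the animal as a block, limma's adjusted p was 0.00177. The call was lost within array set 1, where the difference was -0.55 (limma adjusted p = 0.757), and within set 2, where it was -0.80 (0.103). It was also lost with only the compared groups, where the difference was again -0.70 (limma adjusted p = 0.166). The same held without the 5w array of animal 2, 3 or 4 or the 10w array of animal 2, 3 or 5, with limma adjusted p between 0.0507 and 0.0961 and a difference between -0.61 and -0.69.

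Pairing the weeks by animal changed the calls in DEN3/PB. With the animal as a block, limma called 4 of 5 members there at a Benjamini-Hochberg adjusted p under 0.05, against 0 without it (5 had an unadjusted p under 0.05). Over all genes 8.8% were called with the block and 2.89% without it. Ggt1 rose by 0.83 ± 0.24 (SE; limma adjusted p = 0.0226 with the animal as a block, 0.109 without), in 5 of 5 animals. Akr1b8 rose by 1.46 ± 0.37 (limma adjusted p = 0.00624 with the block, 0.0655 without), and was higher in 5 of 5 animals. Gpx2 rose by 2.16 ± 0.59 (limma adjusted p = 0.0123 with the block, 0.119 without), also in 5 of 5 animals. Il13ra2 fell by 0.46 ± 0.15 (limma adjusted p = 0.0348 with the block, 0.145 without), in 5 of 5 animals. Gstp1, at 0.73 ± 0.26, did not pass with the block (limma adjusted p = 0.0634), and was higher in 4 of 5 animals. MC/PB animals shared part of these directions without an initiator, as Ggt1, Akr1b8 and Gpx2 were higher at 10w in 3 of 4 of them each. The change between weeks in DEN3/PB minus that in MC/PB was 0.47 ± 0.43 (SE) for Ggt1, 0.90 ± 0.68 for Akr1b8 and 1.05 ± 1.15 for Gpx2. Differences of this kind come from the fit without the animal as a block and were not computed with it. None of the 25 such differences for PB, DEN3, TAA, MP and APAP passed in limma (Benjamini-Hochberg adjusted p of 1.00 each, 0 with an unadjusted p under 0.05, and 0% of all genes called).

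**Figure D4:**
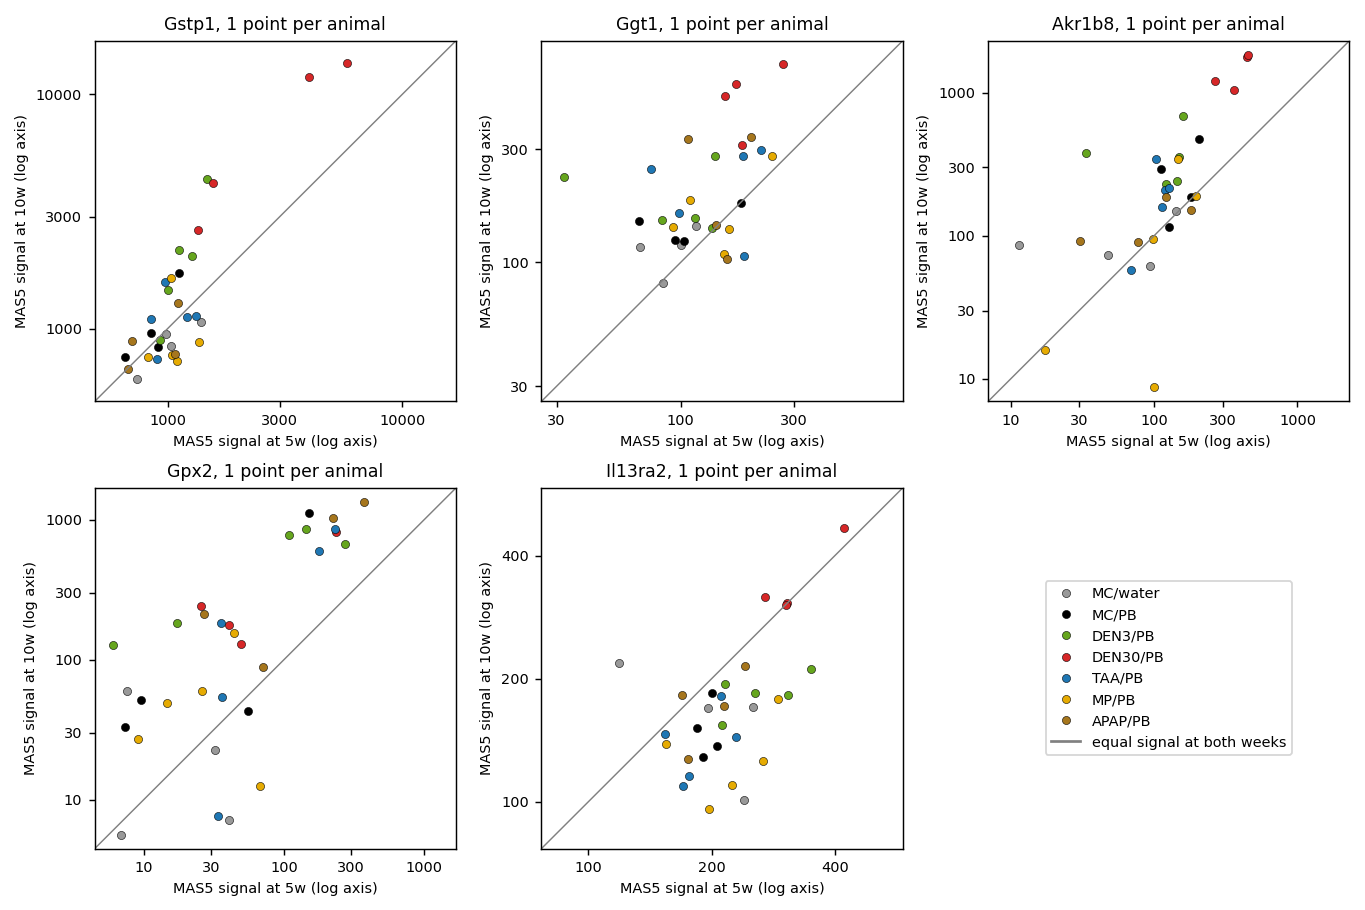
Signal at 10w against signal at 5w for each of the 31 animals, 1 panel per gene, on log axes with the line of equal signal. Colours are the 7 treatments. DEN30/PB animals lie above the line for Gstp1, Ggt1, Akr1b8 and Gpx2, and for Il13ra2 most other animals lie below it.

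Animals kept their place within their treatment for some members. After subtraction of the group means, the log2 levels at 5w and at 10w were compared over the 31 animals with a permutation test of 100000 shuffles within groups. Gstp1 gave Pearson's r = 0.766 and Spearman's rho = 0.727 (permutation p = 0.00026 and 0.00058, adjusted over the 5 genes 0.00065 and 0.00145). Gpx2 gave r = 0.760 and rho = 0.758 (permutation p = 0.00015 and 0.00022, adjusted 0.00065 and 0.0011). Akr1b8 gave r = 0.484 and rho = 0.562 (permutation p = 0.0145 and 0.00375, adjusted 0.0242 and 0.00625). Ggt1, with r = 0.147 and rho = 0.199, and Il13ra2, with r = 0.180 and rho = 0.273, did not pass (permutation p = 0.469 and 0.332, and 0.456 and 0.188). A rat with a high Gpx2 signal for its group at 5w thus tended to be high at 10w, as seen in animal 2 of MC/PB with 150.0 and 1108.

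These relations were computed again within array sets, since both samples of an animal lay in the same set. With the mean of each group and set subtracted, r was 0.648 for Gstp1, 0.605 for Akr1b8 and 0.790 for Gpx2 (permutation p adjusted over 5 genes 0.0038, 0.0237 and 0.00892). Without the 2 animals farthest from the median at 5w, r was 0.666 for Gstp1, 0.419 for Akr1b8 and 0.759 for Gpx2. Without DEN30/PB it was 0.580, 0.477 and 0.753 over 27 animals. For Il13ra2, leaving out the 2 farthest animals raised r to 0.554 (adjusted permutation p = 0.00842), so its relation depends on them, and for Ggt1 r was then 0.336. Genes in general also kept their place, with a median r of 0.313 over 10910 genes. An r as high as that of Gstp1 was found for 5.88% of genes, as high as that of Gpx2 for 6.2% and as high as that of Akr1b8 for 28.8%. The median and these shares use values with only group means subtracted, and were not computed within array sets.

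Within a week, no relation between 2 members passed. Over the 10 pairs of members at each week, 20 relations in all, 0 passed after adjustment. Akr1b8 and Gpx2 at 10w gave r = 0.394 and rho = 0.466, with a permutation p of 0.0294 that became 0.294 when adjusted over the 20. Gpx2 and Il13ra2 at 5w gave r = -0.397 and rho = -0.439, with a permutation p of 0.0261 that also became 0.294. With the mean of each group and array set subtracted, Gstp1 and Akr1b8 at 5w gave r = 0.585, beside 0.199 with group means alone, and Ggt1 and Il13ra2 at 10w gave r = 0.571, beside 0.325. Neither passed in that setting (permutation p = 0.0222 and 0.0167, adjusted 0.217 each).

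Across all 62 arrays, the gene whose level was most like Gstp1 was Akr1b8, with r = 0.712 on log2(signal + 25). This correlation lay between groups more than within them. It was 0.922 over the 14 group means and 0.219 within groups. Next to Gstp1 came Ugt2b7, a glucuronosyltransferase, with r = 0.655, Lgals3bp, a galectin-binding glycoprotein, with 0.637, Tfdp1, a partner of E2F factors, with 0.577, and Akr1b7, an aldo-keto reductase like Akr1b8, with 0.566. Ugt2b7 was also among the 5 genes nearest to Akr1b8, with r = 0.596, as were Fabp4 (0.601), Stk17b (0.592) and Ggt1 (0.581). Nearest to Ggt1 were Plin3, which coats lipid droplets, with 0.672, Anxa5, an annexin, with 0.640, then LOC100911946 (0.640), Htatip2 (0.634) and Fbxo3 (0.632). Gpx2 had a different neighbourhood, with Cryl1 (0.682), Rnf11l2 (0.680), Mospd2 (0.671), Fam136a (0.664) and Nap1l1 (0.647). Nearest to Il13ra2 were Jchain, the joining chain of secreted antibodies, with 0.662, Col4a5, a basement membrane collagen, with 0.618, Ptn (0.593), Ints6l (0.583) and Nrp1 (0.576). These r values are a ranking among 10909 genes over the same arrays, which share groups and array sets. The arrays include DEN30/PB, whose results were known when the members were chosen. Likeness between members is therefore a description without a test.

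Other glutathione transferases, the relatives of Gstp1, gave many calls under PB and no call in DEN30/PB against MC/PB. Over all genes 1.26% at 5w and 2.26% at 10w were called under PB, and 0.114% and 0.0284% in DEN30/PB. A count of 0 in DEN30/PB is near the share over all genes, for this list and for those below. Of 18 other glutathione transferases tested, 0 passed in DEN30/PB against MC/PB at either week in limma (0 also at an unadjusted p under 0.05). At 10w 2 of 18 had a positive difference, with a median of -0.09 beside 0.02 over all genes. Under PB alone 7 of the 18 rose at each week and 0 fell. Gsta3 rose by 3.08 ± 0.36 (SE) at 5w and 4.38 ± 0.31 at 10w (limma, Benjamini-Hochberg adjusted p = 3.1e-06 and 3.0e-11). Gstm3 rose by 2.79 ± 0.44 and 2.90 ± 0.38 (limma adjusted p = 0.000285 and 1.4e-05) and Gsta4 by 0.85 ± 0.12 and 1.49 ± 0.17 (6.2e-05 and 1.4e-06). Gstm1 also rose at both weeks, by 0.39 ± 0.07 and 0.57 ± 0.08 (limma adjusted p = 0.00142 and 4.1e-05). Mgst2 rose by 0.62 ± 0.12 and 1.06 ± 0.12 (limma adjusted p = 0.00333 and 1.3e-06). Whether the PB and DEN30 differences of these genes differ was not tested. Gstp1 itself differed by -0.21 ± 0.30 and 0.25 ± 0.41 between MC/PB and MC/water.

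NRF2 targets, the genes of the antioxidant defence, were likewise called under PB. With PB alone 5 of 21 tested rose at 5w and 8 at 10w, and 0 fell. They included the exporter gene Abcc3, by 5.49 ± 0.34 (SE) at 10w, and the quinone reductase gene Nqo1, by 1.61 ± 0.26 (limma, Benjamini-Hochberg adjusted p = 2.7e-12 and 0.000332). In DEN30/PB against MC/PB 0 of 21 passed in limma at either week (2 and 0 at an unadjusted p under 0.05), with medians of 0.12 at 5w and 0.03 at 10w. Of 19 genes of glutathione synthesis, cycling and breakdown, Slc3a2 and Gsr rose under PB at both weeks, and 0 were called in DEN30/PB (4 and 3 at an unadjusted p under 0.05). Gsr is also among the NRF2 targets called under PB.

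The aldo-keto reductases other than Akr1b8 gave 13 tested genes at 5w and 14 at 10w. Under PB, Akr7a3 rose at both weeks, by 0.97 ± 0.21 (SE) and 2.29 ± 0.28, and Akr1c14 at 10w (limma, Benjamini-Hochberg adjusted p = 0.00929, 4.7e-06 and 0.0351). In DEN30/PB 0 were called (1 and 2 at an unadjusted p under 0.05), with medians of 0.03 and 0.14. Of 13 genes of interleukin 4 and 13 signalling, 0 were called in PB or DEN30/PB at either week, with 3 at an unadjusted p under 0.05 under PB at each week and 0 in DEN30/PB. Their median in DEN30/PB at 10w was -0.10, while Il13ra2 stood 1.08 higher.

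Of 21 other genes known from hepatocyte foci or liver tumours, 3 rose under PB at 5w (Ephx1, Nqo1 and Akr7a3). All 3 are also counted above among the NRF2 targets, and Akr7a3 among the aldo-keto reductases, so the lists are not independent. At 10w 4 rose, the same 3 and Abcb1a, and Tff3 fell by 1.33 ± 0.32 (SE; limma, Benjamini-Hochberg adjusted p = 0.0178). In DEN30/PB 0 of 21 were called at either week, with 9 at an unadjusted p under 0.05 at 5w and 5 at 10w, all of them higher. The median difference was 0.35 at 5w and 0.26 at 10w, beside 0.01 and 0.02 over all genes. This list was chosen with earlier results of these data known, so its DEN30/PB counts are a description.

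Cell cycle genes had mostly positive differences in DEN30/PB at 10w and not at 5w, and none of them passed. At 10w 25 of 28 had a positive difference from MC/PB, with a median of 0.61, and 0 were called in limma (7 at an unadjusted p under 0.05). Their mean log2 level was 8.26, 7.92, 8.49 and 8.15 in the DEN30/PB animals and 7.93, 7.75, 7.46 and 7.47 in the MC/PB animals. DEN30/PB animal 2 lay below MC/PB animal 1. Animals 1 and 3 had the highest means of DEN30/PB and are also its animals of array set 1. At 5w the same animals had 8.02 and 7.89, against 7.55 and 7.53 in set 2, and the MC/PB animals of set 1 were likewise above those of set 2. Single animals of other groups reached the DEN30/PB level at 10w, among them TAA/PB animal 4 with 8.33, MC/water animal 3 with 8.26 and DEN3/PB animals 3 and 5 with 8.18 and 8.17. At 5w 13 of 28 were positive against MC/PB, with a median of -0.07. Against DEN3/PB, 28 of 28 were positive at 10w, with a median of 0.60.

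Markers of other liver cells were set beside the members of DEN30/PB, and their part in the members' differences was not tested. Of 14 biliary and progenitor genes, 6 passed the signal minimum, and Krt7 and Cldn4 were under 100 on all arrays. Their summed signal at 10w was 3149 to 4438 in DEN30/PB and 4835 to 5993 in MC/PB, lower in DEN30/PB without overlap, although the median difference of the 6 genes was 0.56 and 4 of 6 were positive. At 5w the sums were 1983 to 5701 in DEN30/PB and 3516 to 5123 in MC/PB. The 10w sums of MP/PB, 1980 to 3436, and of APAP/PB, 2566 to 3362, also lay below those of MC/PB without overlap. DEN3/PB, with 2681 to 6220, TAA/PB, with 2555 to 4948, and MC/water, with 1740 to 7318, overlapped MC/PB at 10w. Of 12 stellate cell and fibroblast genes, 12 passed the minimum over both weeks. In DEN30/PB against MC/PB 11 of 12 were positive at 5w, with a median of 0.30, and 11 of 11 tested at 10w, with a median of 0.33. None was called in limma, and 3 and 4 had an unadjusted p under 0.05, all higher. Their sums at 10w were 9388 to 16320 in DEN30/PB and 8868 to 11168 in MC/PB. For Kupffer cells and macrophages, 8 of 12 genes passed, with Itgam under 100 on all arrays and sums of 11491 to 18299 and 12463 to 15285. For lymphocytes 9 of 14 passed, with sums of 1232 to 1899 and 1129 to 1686, and for endothelial cells 8 of 10, with sums of 9021 to 10700.0 and 8167 to 9820.4. The ranges of the sums overlapped in the 4 lists other than the biliary one. At 10w 6 of 8 macrophage, 6 of 7 lymphocyte and 7 of 8 endothelial genes were nonetheless positive, with medians of 0.15, 0.19 and 0.11 and 1, 0 and 1 genes at an unadjusted p under 0.05 (0 called in limma). The summed hepatocyte markers of the 2 groups also overlapped at 10w.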

How the data were processed

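Per the submitters' processing notes, the authors computed linear signal intensities with MAS5 5.0 and deposited them. No source used here gives the array model, the scaling target or a further step. Groups, doses and replicate numbers came from the labels, and symbols from a table pairing probe sets with genes. Of the probe sets, 57 were controls, 20826 had 1 symbol, 436 several and 9780 none.

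The deposited intensities were transformed to log2(signal + 25), which understates changes of low signals. Probe sets had to reach 100 on at least 4 arrays of a fit, and each gene was read from its probe set with the highest mean. The fits held 10491 genes (31 arrays of 5w), 10546 (31 of 10w) and 10910 (62 arrays for differences between weeks). They were made in limma 3.58.1 under R 4.3.3, using lmFit and a trended eBayes. Tests were two-sided, and p was adjusted over all genes of a fit by Benjamini-Hochberg, with 0.05 as threshold. Correlations were computed in Python 3.11.15. The code was tested on simulated data. Precision is limited by the number of arrays.

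The members, gene lists and comparisons were chosen with earlier results of these data known. Counts of list genes in DEN30/PB are therefore descriptions. The share of all genes at an unadjusted p under 0.05 was not computed. The array sets were defined after seeing the data, by the sign of the leading principal component of values minus group means. Genes named are the members, the 5 most correlated with each, and up to 4 genes with the smallest p of a list in a comparison, with those that a count of 5 or fewer covers. Per the design text both samples came from 1 animal, and residuals of the weeks correlated in all treatments (r from 0.210 to 0.392). Different animals of equal number, which share an array set, gave r of up to 0.259 within a week. The animal entered as a block through a consensus correlation of 0.316. Both samples of an animal shared an array set, and these correlations were not computed within sets. Animal and set therefore cannot be told apart in them. Equal numbers in different treatments name different animals. Alternatives were no offset, an offset of 100, no filter, quantile normalization, all probe sets, blocks by number or array set, each array set alone, only the compared groups, and leaving out each array.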

Additional observations from a re-analysis of the deposited data

Results flagged for a closer look

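In 4 of 70 groups of a member, 1 animal lay farther from the rest than Dixon's criterion allows for that number of animals, which chance does in about 1 of 20 groups. Gstp1 of MP/PB animal 5 at 10w had a signal of 1644.1, beside a median of 765 in the other 4. Akr1b8 of DEN3/PB animal 5 at 5w had 33.48, beside a median of 147 in the other 4, and the same animal had 381 at 10w. Gpx2 of MC/PB animal 2 at 10w had 1108.0, beside a median of 43.1 in the other 3, and this animal was also the highest of its group at 5w, with 150.0. Il13ra2 of DEN30/PB animal 2 at 10w had 468.47, beside a median of 307 in the other 3, and it was the highest of its group at 5w too, with 421.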

How the results depend on the processing

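Of 80 tested member results within a week or between the weeks of a treatment, 79 did not pass in the fit reported. Of their 775 values under other settings 6 passed and 32, from 25 results, had the other sign. Of 690 values without 1 array 0 passed. For DEN3/PB between weeks, 4 members were called with the replicate block of the animal, 1 with an offset of 100 and 1 with only the compared groups. For MP/PB between weeks, 0 were called within array set 1, within set 2 and with only the compared groups, and 0 to 1 without each array in turn. Blocking by replicate number within a week changed no member's call. Its residual correlations lay between 0.03 and 0.26, and all 4 pairs were over 0.1 in DEN3 and DEN30 at 5w and MP and APAP at 10w. The animals of each such pair also shared an array set, so number and set cannot be told apart in these values. The DEN30 difference of Akr1b8 at 10w was 3.14 within set 1 and 1.79 within set 2, and that of Il13ra2 was 0.83 with an offset of 100. Between the weeks of an animal, r of Akr1b8 was 0.44 with no offset (adjusted permutation p = 0.065), and r of Il13ra2 was 0.55 without the 2 farthest animals. Leaving out 1 array, the DEN30 differences of Gstp1 lay between 1.21 and 1.90 at 5w and 2.30 and 3.08 at 10w, and those of Gpx2 between -0.01 and 0.99, and 0.57 and 2.10. Where calls changed, the cause was not tested. Gpx2 signals under 100 on 36 of 62 arrays limit its precision.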
